A study of Mus musculus with 6 samples.

Results

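The activin system was described in mouse embryonic fibroblasts with and without Zmpste24, from the signal of its secreted ligands, the proteins that bind them and the receptors they act on. The genes were Inhba and Inhbb, Fst, Fstl3 and Fstl1, and Acvr2a, Acvr2b and Acvr1b, chosen by name. Every probe set, the group of short oligonucleotides that reads 1 transcript on the array, was taken if its only platform symbol was one of these 8, which gave 16 of 45037 probe sets, for 8 of 18193 genes. A further probe set carries the symbol Acvr2a together with another gene and was left out.

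RNA came from 3 wild-type (Zmpste24+/+) and 3 Zmpste24-/- cultures, labelled strain C57BL/6, and each culture was hybridised to its own Affymetrix Mouse Genome 430 2.0 array. Zmpste24 encodes the metalloprotease that cuts prelamin A into mature lamin A, and the comparison asks which transcripts differ without it before many passages. The fibroblasts were derived from E13.5 embryos, kept in medium with fetal calf serum and no other treatment named, and harvested at passage 3. Cultures carry a number from 1 to 3 within their genotype. The sources used here do not give the deleted part of the allele, the litters or the share of other cells in these mixed primary cultures, so p-values measure the spread between these cultures only.

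Activins are dimers of the beta subunits that Inhba and Inhbb encode, and belong to the TGF-beta superfamily. They bind a type II receptor (from Acvr2a or Acvr2b), which recruits and phosphorylates the type I receptor from Acvr1b, and the signal passes to the nucleus through SMAD2 and SMAD3 with SMAD4. Follistatin (Fst) and the follistatin-like protein of Fstl3 wrap around activin outside the cell and block receptor binding, and fibroblasts are a known source of both ligand and antagonist.

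Some facts of the arrays bear on every result. Zmpste24 had a signal of 3850, 2249 and 2043 in the wild-type cultures 1 to 3 and 365.4, 181.9 and 226.4 in the Zmpste24-/- cultures. The arrays numbered 1 stood apart in both genotypes, with r = 0.9835 between them across probe sets on the log2 scale and 0.953 to 0.9586 with the other 4 arrays. Fibroblast markers were bright as a sum on every array, at 101530 to 132393 over 11 genes. Single markers could be far lower, such as Lum at 292.4 in Zmpste24-/- culture 2. Xist, the RNA of the inactive X chromosome, was low in wild-type cultures 2 (69.25) and 3 (43.73) and at least 4766 in the others, and the Y-linked gene Eif2s3y was high in those same cultures (530.7 and 1341). By these transcripts the pair of cultures numbered 1 was alike in sex and the other pairs were not, so sex and genotype cannot be told apart in pairs 2 and 3.

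In brief, Fst signal was higher and Inhbb signal lower in Zmpste24-/- than in the same-numbered wild-type culture in all 3 pairs. With both Acvr2a and the second Fstl1 probe set, 5 of 13 were higher in all pairs, against 15.8% over all. With the dim Acvr2b 3 of 13 were lower, against 16%. No member passed the test over all probe sets. That test without a block did not call Zmpste24 either (log2 difference -3.31, limma adjusted p = 0.987, and 4.02e-05 with the replicate block), so a member that did not pass is not shown to be alike in the genotypes. Between culture numbers 7 of 13 tested probe sets (53.8%) passed, where 41.6% of all tested probe sets did: Inhbb, Acvr2a, Fstl3 and Fstl1 were highest in number 1, and Inhba was lowest there. Of the 16 probe sets, 3 (the dimmer of Inhba and the dimmer pair of Acvr2b) fell under the filter on dim signal of 39.4, and all 8 genes kept at least 1. Values were tested as log2(signal + 16) with limma and Benjamini-Hochberg adjustment, and each log2 difference is on that scale, which understates differences of dim probe sets. In bulk RNA, fewer cells of a type and less RNA per cell cannot be told apart.

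**Figure D1:**
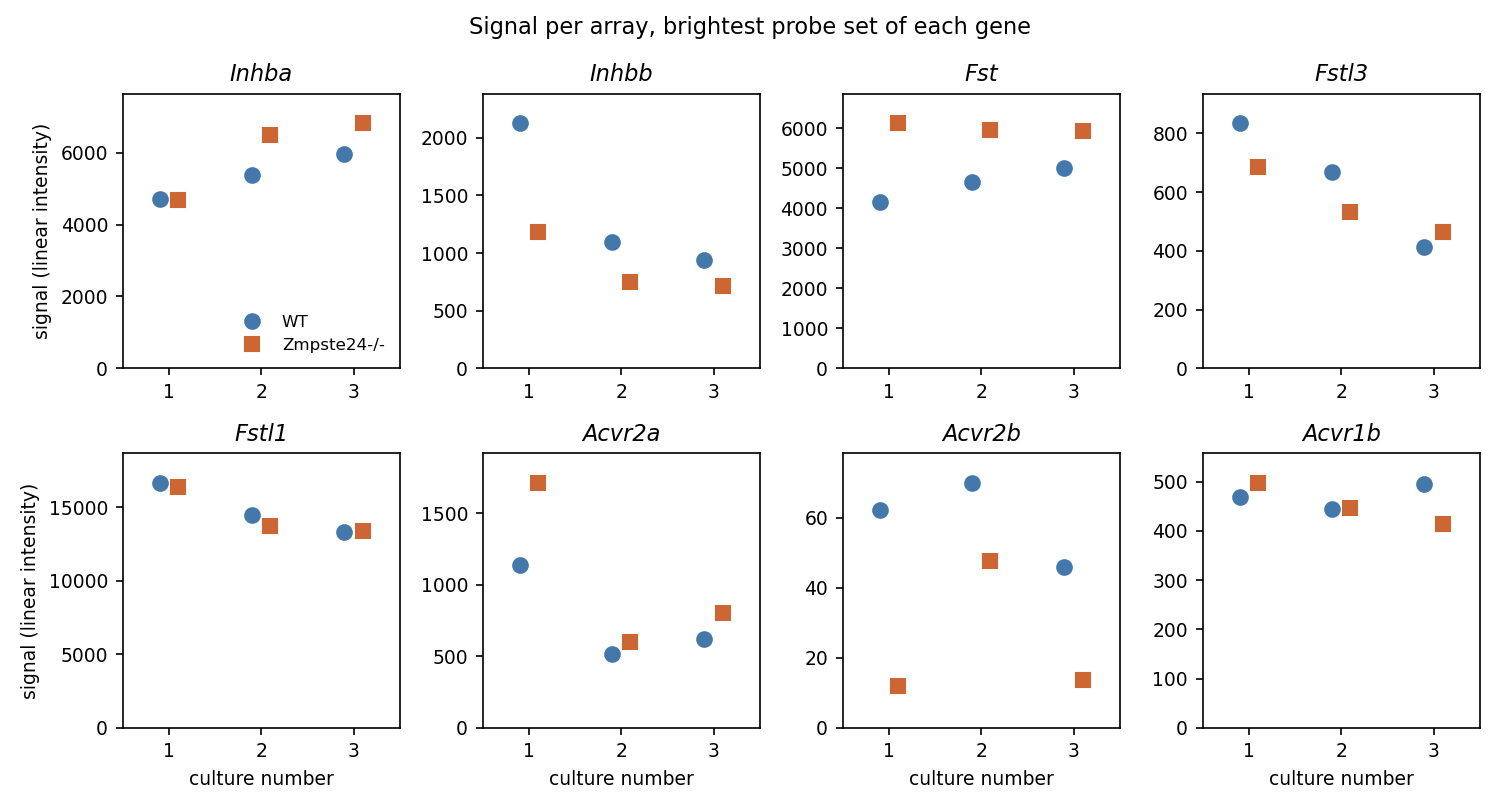
Signal of the brightest probe set of each gene on each array (y axis, linear intensity from 0) by culture number (x axis), with circles for WT and squares for Zmpste24-/-. The squares lie above the circles at every number for Fst (5942 to 6136 against 4163 to 5003) and below them for Inhbb, while Acvr2a is highest in number 1 of both genotypes.

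The stretches upstream of the annotated start are shown for the 4 genes with the largest differences between culture numbers, since Inhbb, Acvr2a and Fstl3 were all higher in number 1 and Inhba was lower. Each is the 250 bases before the RefSeq start in GRCm38.p6, read 5′ to 3′ on the gene's strand, with capitals for matches on either strand to any of the motifs searched. These were the core SMAD element CAGAC, the AP-1 site TGANTCA, the cyclic AMP element TGACGTCA, the GC box GGGCGG, the E-box CACGTG and the TATA box TATAAA.
Inhba, chr13:16011601-16011850, plus strand: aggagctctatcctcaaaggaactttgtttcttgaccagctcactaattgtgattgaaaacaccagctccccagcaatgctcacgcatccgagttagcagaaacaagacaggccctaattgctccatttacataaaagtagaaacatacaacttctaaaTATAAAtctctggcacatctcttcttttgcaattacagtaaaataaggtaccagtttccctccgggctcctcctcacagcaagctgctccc
Inhbb, chr1:119422249-119422498, minus strand: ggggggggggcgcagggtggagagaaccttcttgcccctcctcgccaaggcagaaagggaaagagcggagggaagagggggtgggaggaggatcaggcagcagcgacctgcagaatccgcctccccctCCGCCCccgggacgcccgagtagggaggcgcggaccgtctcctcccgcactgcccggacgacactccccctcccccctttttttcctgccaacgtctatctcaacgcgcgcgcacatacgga
Fstl3, chr10:79777024-79777273, plus strand: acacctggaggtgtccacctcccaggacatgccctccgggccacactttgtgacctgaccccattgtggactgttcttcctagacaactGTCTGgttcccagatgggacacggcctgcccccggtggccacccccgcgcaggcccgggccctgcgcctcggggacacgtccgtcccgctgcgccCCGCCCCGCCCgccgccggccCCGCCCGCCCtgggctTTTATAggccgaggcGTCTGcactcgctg
Acvr2a, chr2:48813859-48814108, plus strand: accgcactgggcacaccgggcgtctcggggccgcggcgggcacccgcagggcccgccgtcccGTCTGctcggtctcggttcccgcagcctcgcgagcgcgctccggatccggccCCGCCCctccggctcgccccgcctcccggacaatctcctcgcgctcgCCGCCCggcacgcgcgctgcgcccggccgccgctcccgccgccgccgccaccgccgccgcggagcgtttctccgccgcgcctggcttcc

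The windows differed in base composition, at 43.2% G and C for Inhba against 68% for Inhbb, 71.2% for Fstl3 and 82% for Acvr2a, where the median over all promoters was 52.4%. The Inhba window held 1 TATA match, which starts 91 bases before the annotated start, and none of the other motifs. The Inhbb window held 1 GC box. Fstl3 held 4 GC boxes, partly overlapping, and 2 SMAD elements. It also held 1 TATA match on the opposite strand, printed as TTTATA from 29 bases before the start. Acvr2a held 2 GC boxes and 1 SMAD element. Of 32851 promoters of this length, 42.2% held a SMAD element, 32.7% a GC box, 12.4% a TATA match, 6.75% an AP-1 site, 6.02% an E-box and 1.55% a cyclic AMP element. These matches describe the letters only, and the array does not show which start was used. Promoters were found for 7 of the 8 genes, all but Fst.

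Inhba encodes the beta A subunit, which forms activin A. Its signal was 4713, 5391 and 5970 in wild-type cultures 1 to 3 and 4674, 6498 and 6831 in Zmpste24-/-. Both number 1 cultures were the lowest and nearly equal, the other Zmpste24-/- cultures were the highest, and the genotypes overlapped. The log2 difference between the genotypes was 0.15 (limma SE 0.18, adjusted p = 0.9999), made of -0.01, 0.27 and 0.19 in pairs 1, 2 and 3. The other Inhba probe set had a signal of at most 18.72 on any array and was not tested.

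By culture number the direction was clearer: Inhba was lower in number 1 by a log2 difference of -0.39 against the mean of numbers 2 and 3 (SE 0.07, limma F-test adjusted p = 0.00633). Without the Zmpste24-/- array of number 1 the difference was -0.27 and the call was lost (adjusted p = 0.0651).

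Inhbb encodes the beta B subunit of activin B. Its brighter probe set had 2129, 1099 and 942.4 in wild type and 1179, 745.5 and 714.0 in Zmpste24-/-. The signal in Zmpste24-/- was 55.4%, 67.8% and 75.8% of the same-numbered wild-type culture, while the ranges of the genotypes overlapped because number 1 was high in both. The dimmer probe set had 400.4, 246.2 and 207.1 in wild type and 250.9, 143.4 and 100.5 in Zmpste24-/-, or 62.7%, 58.3% and 48.5%. Both probe sets thus gave the same direction in every pair.

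The log2 differences were -0.60 (SE 0.36) and -0.77 (SE 0.38), each with a limma adjusted p of 0.9999. With the culture number as a block the SE fell to 0.11 and 0.14 and the unadjusted p to 0.000495 and 0.000518, and neither passed (adjusted p = 0.256 for both). Without the wild-type array of number 1 the value of the brighter probe set was -0.24. Between culture numbers Inhbb passed by both probe sets, at 0.87 (SE 0.11, adjusted p = 0.00128) and 0.88 (SE 0.14, adjusted p = 0.00361) higher in number 1.

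The subunits thus ran in opposite directions by culture number. Within arrays, log2 Inhba minus log2 Inhbb was larger in Zmpste24-/- than in wild type by 0.83, 0.82 and 0.59 in pairs 1, 2 and 3, which is given as a description with no test. Inha encodes the alpha subunit, which pairs with either beta subunit to form inhibin, an antagonist of activin. It had 74.59, 211.2 and 233.3 in wild type and 91.21, 87.67 and 96.67 in Zmpste24-/-, and was high only in wild-type cultures 2 and 3, the pair with low Xist. Its log2 difference of -0.68 did not pass (adjusted p = 0.546 with the block).

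Fst encodes follistatin, which binds activin nearly irreversibly. The brighter of its probe sets had 4163, 4668 and 5003 in wild type and 6136, 5970 and 5942 in Zmpste24-/-, with means of 4611 ± 423 and 6016 ± 105.0 (SD, n = 3 each). The 3 Zmpste24-/- arrays lay close together and above every wild-type array. The dimmer probe set had 1772, 2154 and 2347 against 2350, 2820 and 2410 in Zmpste24-/-, and its groups only just did not overlap. The groups were separate in these 2 of the 13 tested member probe sets, both of Fst, against 2.22% of all 27022 tested probe sets in this direction, and in 0 in the other direction, against 3.03%.

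The log2 difference of the brighter Fst probe set was 0.39 (SE 0.11, limma adjusted p = 0.9999), with 0.56, 0.35 and 0.25 in pairs 1, 2 and 3, and 0.256 as the adjusted p with the block. That of the dimmer was 0.28 (SE 0.16), with 0.40, 0.39 and 0.04. Pair 1 is the one whose sexes were alike by Xist, and the part of sex in these values was not tested. In numbers 2 and 3 alone the brighter probe set differed by 0.30 (SE 0.082, adjusted p = 0.498). Fst did not pass between culture numbers, at -0.09 (SE 0.073, adjusted p = 0.571) and -0.24 (SE 0.095, adjusted p = 0.151).

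Fstl3 encodes a secreted activin-binding protein with fewer follistatin domains than follistatin itself. Its only probe set had 835.3, 667.6 and 414.2 in wild type and 683.7, 531.6 and 462.6 in Zmpste24-/-. Signal was lower in Zmpste24-/- in numbers 1 and 2 and higher in number 3, and the groups overlapped (log2 difference -0.15, SE 0.30, adjusted p = 0.9999). Both number 1 cultures were above the other 4, and number 3 was the lowest in each genotype. The F-test across numbers passed (adjusted p = 0.011), with number 1 higher than the other numbers by 0.55 (SE 0.13) and number 3 below number 2 by a log2 difference of -0.43, and was lost without the wild-type array of number 3 (adjusted p = 0.0782).

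Fstl1 encodes a secreted glycoprotein that shares the follistatin-like domain and is not a strong activin antagonist. The brighter probe set had 16686, 14492 and 13347 in wild type and 16379, 13739 and 13388 in Zmpste24-/-, and the other had 14950, 13947 and 13467 against 15824, 14125 and 14294. Both sat at the 99.4th percentile of all probe sets or above. Genotype differences were -0.03 (SE 0.12) and 0.06 (SE 0.089), smaller than the spread between cultures of 1 genotype. Number 1 was the highest in both genotypes by both probe sets, by 0.27 (SE 0.042, adjusted p = 0.00324) and 0.14 (SE 0.042, adjusted p = 0.0677). When each array was centred on its median, which by itself lowers number 1 by 0.11, the first of these was 0.16 and did not pass (adjusted p = 0.136).

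**Figure D2:**
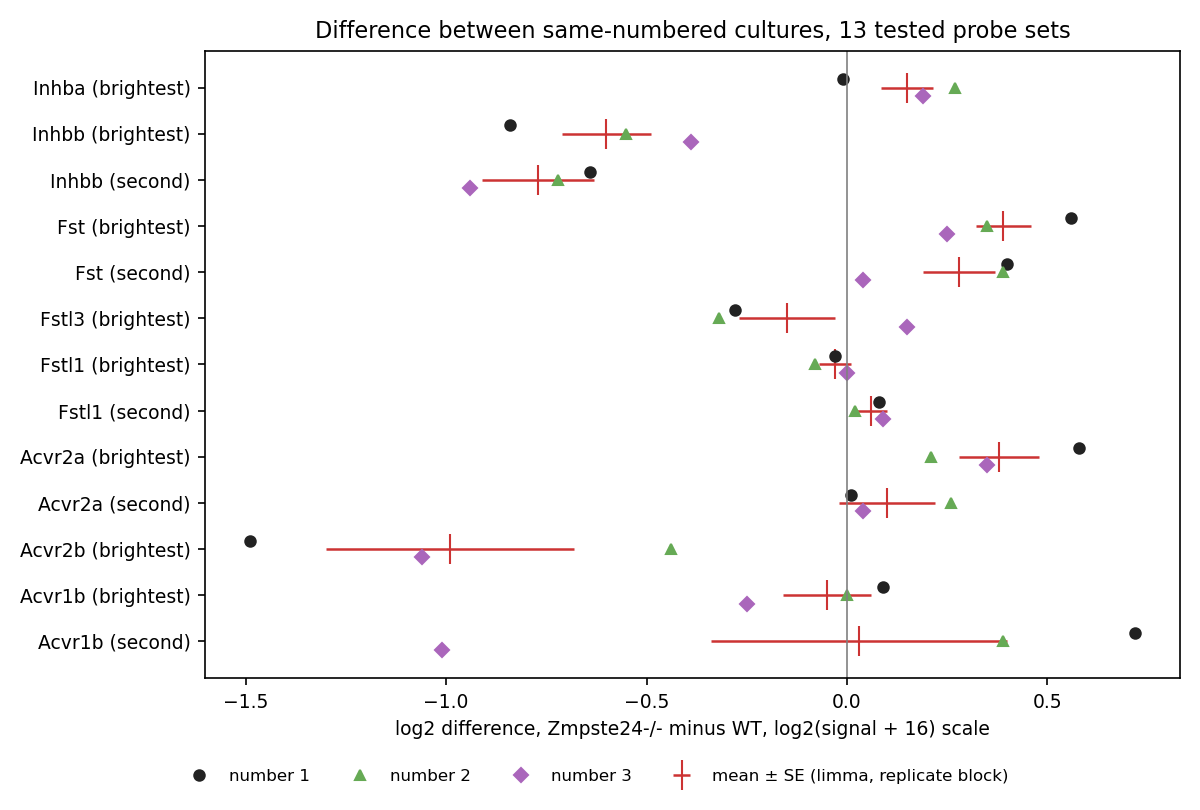
Log2 difference between Zmpste24-/- and WT (x axis, log2(signal + 16) scale) in each same-numbered pair for the 13 tested member probe sets (y axis), with the mean and SE from limma with the replicate block in red. All 3 points lie right of 0 for both Fst, both Acvr2a and the second Fstl1 probe set. All 3 lie left of 0 for both Inhbb probe sets and for the dim Acvr2b. The dim second Acvr1b probe set runs from -1.01 to 0.72.

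Acvr2a encodes activin receptor type IIA, a transmembrane serine/threonine kinase. Its brighter probe set had 1140, 516.7 and 623.3 in wild type and 1715, 601.7 and 800.8 in Zmpste24-/-. Number 1 was about 2.25-fold above numbers 2 and 3 in mean signal, and within each number the Zmpste24-/- culture was the higher. The dimmer probe set had 476.0, 252.5 and 326.0 against 480.0, 305.3 and 336.4, with the same order of the numbers and smaller gaps between the genotypes.

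The genotype differences were 0.38 (SE 0.46) and 0.10 (SE 0.29), with limma adjusted p of 0.9999, and 0.407 and 0.817 with the block. Without the Zmpste24-/- array of number 1 the difference of the brighter probe set was -0.05, and without the wild-type array of that number it was 0.71. Across numbers Acvr2a had the largest difference among the 8 genes, at 1.14 (SE 0.11, adjusted p = 0.000266) and 0.63 (SE 0.12, adjusted p = 0.00874) higher in number 1.

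Acvr2b, the type IIB receptor, was dim. Its brightest probe set had 62.38, 70.11 and 45.99 in wild type and 11.93, 47.56 and 13.77 in Zmpste24-/-, a mean of 59.5 ± 12.3 against 24.4 ± 20.1 (SD, n = 3 each). It was lower in Zmpste24-/- in every pair, with an overlap of culture 2 of Zmpste24-/- and culture 3 of wild type. The Zmpste24-/- mean lies under the filter, so the probe set was tested only because wild type was above it.

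The log2 difference was -0.99 (SE 0.37, limma adjusted p = 0.9999, and 0.468 with the block), and -1.50 and -0.50 with pseudocounts of 1 and 64. A probe set just under the filter ran the other way, with 17.24, 43.91 and 20.64 in wild type and 20.56, 63.94 and 33.78 in Zmpste24-/-. The remaining Acvr2b probe set was at most 6.23 on any array. The probe sets thus disagree on the direction for this gene.

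Acvr1b encodes the type I activin receptor ALK4, the kinase that phosphorylates SMAD2 and SMAD3. It had 468.7, 444.7 and 494.9 in wild type and 498.4, 446.1 and 413.4 in Zmpste24-/-, a narrow range with full overlap. The genotype difference was -0.05 (SE 0.16) and the difference of number 1 from the others was 0.10 (SE 0.12, adjusted p = 0.772). Its dimmer probe set varied from 22.61 to 61.54 with no order by genotype or number.

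Counts over the members were read against all probe sets. Without a block, 0 of 13 passed by limma and 2 had an unadjusted p under 0.05 (Fst and Acvr2b, each by its brightest probe set), where 0 of 27022 (0.0% in either direction) passed and 1.29% had such a p. With the replicate block 0 of 13 passed, against 0.0% higher and 0.0185% lower over all, and 6 had an unadjusted p under 0.05 against 8.99%. These 6 came from Inhbb and Fst, by both probe sets, and from Acvr2a and Acvr2b. Higher signal in all 3 pairs was seen for 5 of 13 against 15.8% over all, and lower signal for 3 of 13 against 16%. In numbers 2 and 3 alone 0 of 13 passed, against 0.0111% higher and 0.0629% lower, and 4 (Inhba, Fst and both of Inhbb) had an unadjusted p under 0.05 against 6.09%. By Xist the genotypes also differed in sex in those numbers. Acvr2b is among the 2, the 6 and the 3, and since it passed the filter only through wild type, nothing is read from its share in them. Probe sets of 1 gene share its transcripts, and the members were chosen with earlier results of these arrays known, so these shares are descriptions.

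By culture number 7 of 13 (53.8%) passed, from 5 genes, against the same 41.6%. In 6 of these number 1 was the higher, against 22.4% over all, and in 1, Inhba, it was the lower, against 19.2%. Both number 1 arrays lay above the other 4 in 7 of 13, against 31.2%, and below them in 1, against 27.2%. The F-test has 2 arrays per number, and a difference by number was common on these arrays. A test of whether the genotype difference itself differed between number 1 and the other numbers passed for 0 of the 13 (lowest unadjusted p = 0.102, Fst) and for 0.0259% of all probe sets.

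**Figure D3:**
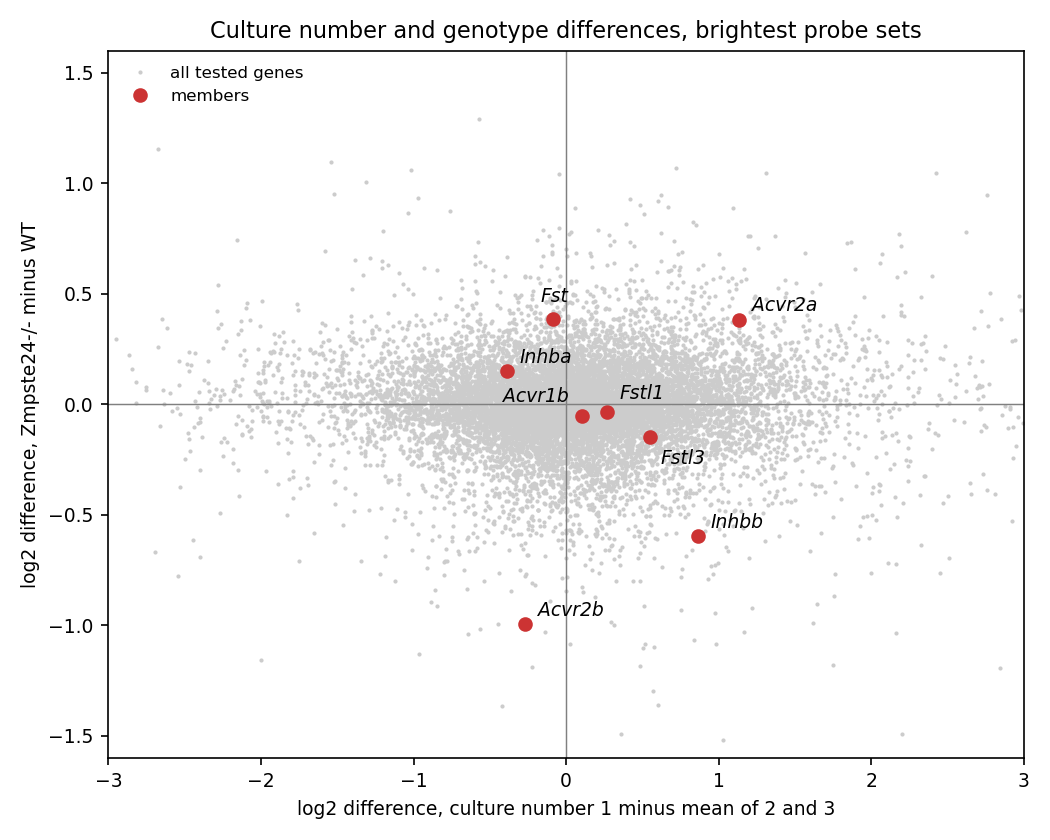
Each point is a gene by its brightest probe set, with the log2 difference of culture number 1 from the mean of numbers 2 and 3 (x axis) and of Zmpste24-/- from WT (y axis). The 8 members are red among 13038 tested genes in grey (80 lie outside the axes), with Acvr2a at 1.14 and Inhba at -0.39 along x, and Fst at 0.39 and Inhbb at -0.60 along y.

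Other cell markers moved with culture number beside the members, where 47% of all tested genes passed. All 10 macrophage markers passed and were higher in number 1, with a summed signal of 7096 to 13867 there and 1239 to 2003 in the other 4 arrays, where C1qa was 3.181 to 9.018. All 7 tested mitosis genes passed and were lower, at 4722 to 4724 against 15685 to 17995. Fibroblast markers passed in 7 of 11, of which 6 were higher in number 1, among them the small matrix proteoglycans Lum (3.84) and Dcn (2.91) and the fibrillar collagen gene Col3a1 (0.66). Their part in the values of Inhba, Inhbb, Fstl3, Fstl1 and Acvr2a was not tested.

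Muscle markers passed in 3 of 3 and epithelial markers in 2 of 4 (50%), all lower, against 47% of all tested genes. Endothelial markers passed in 1 of 3 (33.3%), lower, and neural markers in 1 of 5 (20%), higher, both below that share. With 1 array left out these counts ran from 1 to 3, 1 to 2, 0 to 2 and 0 to 2 in that order. Between the genotypes 0 tested markers of any of these lists passed, by limma without or with the block. The 5 neural markers had log2 differences of 0.05 to 0.87 (median 0.67), with Tubb3 near 0 and lower in Zmpste24-/- in pairs 2 and 3, and sums of 804.6 to 1899 in wild type and 1709 to 2210 in Zmpste24-/-. Their part in the values of Fst and Inhbb was not tested.

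Other genes of the pathway were counted from lists, each gene by the log2 difference of its brightest probe set. Of 29 other ligands and antagonists 13 were tested, 4 higher and 9 lower in Zmpste24-/- (median -0.11, against -0.00 over all 13038 genes), and 0 passed by limma without or with the block. Bmp4, a bone morphogenetic protein, had the smallest unadjusted p of the list (0.0622), with 2719, 1823 and 1862 in wild type and 3550, 2364 and 3246 in Zmpste24-/-. Grem1, a secreted antagonist of such proteins, differed by 0.41, and the ligand Bmp2 by 0.55 at a signal of at most 80.95. By number 8 of 13 passed (61.5%, against 47% of all genes), 6 of them higher in number 1.

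The TGF-beta isoforms were divided there. Tgfb2 was higher in number 1 by 1.35 (adjusted p = 0.000125). Tgfb1 and Tgfb3 were lower, by log2 differences of -0.83 (adjusted p = 0.000599) and -0.72 (adjusted p = 0.000242). Tgfbr3, the coreceptor betaglycan, which also presents inhibin, had 5327 and 3908 in number 1 and 1249 to 1534 in the others (1.68, adjusted p = 0.000132).

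Of 22 other receptors and transducers 20 were tested, 13 higher and 7 lower in Zmpste24-/- (median 0.07), and 0 passed without or with the block. Tgfbr1, the type I receptor for TGF-beta, had 816.5, 916.5 and 1072 in wild type and 1169, 1093 and 1347 in Zmpste24-/-, a log2 difference of 0.36. The inhibitory Smad6 differed by 0.31, the type II receptor gene Bmpr2 by 0.20 and Smad9 by 0.28. By number 13 of 20 passed (65%), 6 higher and 7 lower in number 1. The receptor genes Tgfbr2 and Bmpr1a were higher, by 0.95 (adjusted p = 8.29e-05) and 0.97 (adjusted p = 0.00035), and the corepressor gene Tgif1 was lower, at -0.81 (adjusted p = 0.00174). Of the 20, 8 passed when either number 1 array was left out, and 5 with no intensity trend.

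Response genes of activin and TGF-beta signals, listed without a direction of response and with Id genes among them, had 12 tested of 13. Of these 6 were higher and 6 lower in Zmpste24-/- (median 0.01), and 0 passed without or with the block. Id2 and Id3, inhibitors of helix-loop-helix factors, differed by 0.30 and 0.14, the matrix gene Tgfbi by 0.12 and Ldlrad4, a dampener of SMAD signals, by -0.13. By number 10 of 12 passed (83.3%), 8 of them lower in number 1, and 3 passed with no intensity trend. Ccn2, a matricellular protein, had 10168 and 9272 in number 1 and 17835 to 19360 in the others (-0.91, adjusted p = 1.53e-05). Tagln, an actin-binding protein of smooth muscle, and Skil, a SMAD corepressor, were also lower, at -0.49 (adjusted p = 0.000264) and -0.81 (adjusted p = 0.000282).

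Matrix proteins listed as relatives of follistatin, most with a follistatin-like domain, had 7 tested of 11. Of these 3 were higher and 4 lower in Zmpste24-/- (median -0.03), and 0 passed without or with the block. Smoc1 had 208.6, 325.2 and 315.2 in wild type and 736.8, 424.5 and 470.4 in Zmpste24-/-. Its log2 difference was 0.89, made of 1.74, 0.37 and 0.55 in pairs 1, 2 and 3. Kazald1 differed by 0.38, Igfbp7 by -0.09 and Sparc, an abundant collagen-binding protein, by -0.03. By number 1 of 7 passed (14.3%): Hmcn1, a basement membrane protein without that domain, at 1.41 higher in number 1 (adjusted p = 0.00374). Agrn and Kazald1 differed by 0.43 and 0.35 there and did not pass. The count was 3 without the wild-type array of number 1 and 2 without that of number 2.

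**Figure D4:**
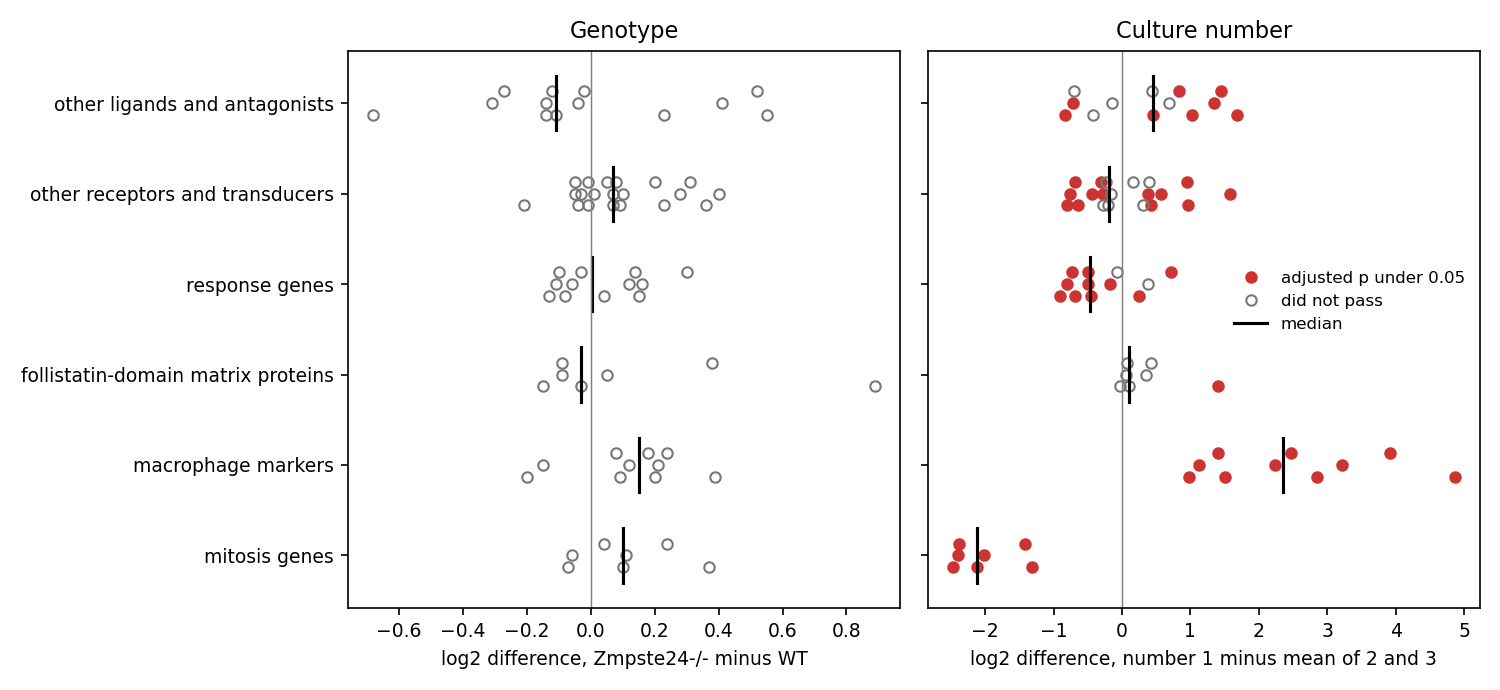
Log2 differences of the tested genes of 4 pathway lists and 2 marker lists, between the genotypes (left) and between culture number 1 and the mean of 2 and 3 (right), with filled points for an adjusted p under 0.05 and a bar at the list median. No point is filled on the left, where medians lie between -0.11 and 0.15, and on the right the medians run from -2.12 for mitosis to 2.36 for macrophage markers.

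The genes whose signal ran most alike to a member over the 6 arrays were found by Pearson's r on the log2 scale, as a description. The arrays fall into number 1 and the rest, so a high r can arise from that split alone: 1601 genes had r over 0.9 with Acvr2a and 668 with Inhba, but 52 with Fst. For Fst the nearest were Faim (0.976) and Tmem125 (0.975), for Inhbb Rflnb and Septin9 (0.991 each), for Inhba Arid5b (0.993) and Rif1 (0.992), and for Acvr2a Lgr4 (0.999) after Fxyd1. Fstl1 was nearest to St6galnac6 and Zfp106 (0.998 each), Fstl3 to Zdhhc8 and Lrrc14 (0.993 each), Acvr2b to Rbm20 (0.989) and Tecr (0.98), and Acvr1b to Slc22a13 (0.973) and Pcdhb15 (0.972).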

How the data were processed

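RNA of 6 cultures was measured on 6 arrays. The authors deposited 1 linear intensity for each probe set, made with GCOS per the submitters' processing notes, and the sources used here give neither its version nor its settings. Every array has a mean of 500 after trimming 2% from each end, so a change in total RNA cannot be seen, and median signal was 56.07 to 70.27. The number of arrays limits the precision.

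Of 45101 probe sets 64 controls were left out. Symbols came from the platform annotation (34945 with 1 symbol, of which 34741 matched a gene ID in RefSeq's GRCm38.p6 table and 0 changed; 932 with several; 9160 not listed). Intensities were taken as log2(signal + 16), the dimmest 40% by mean over all arrays were left out, and 27022 were tested with limma 3.58.1 in R 4.3.3 (intensity trend, threshold 0.05). Genotype was fitted without a block, and culture number by an F-test with genotype as a term. Promoters are RefSeq's. Scripts were tested on simulated data.

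All probe sets of the members were described, each gene led by its brightest. Up to 4 genes of a list were named by smallest p between genotypes and up to 3 between numbers. Tgfb1 was named besides, to complete the TGF-beta isoforms. The members and lists (4 of the pathway, 6 of cell types and 1 of mitosis) were chosen with earlier results of these data known. Fst, Bmp4, Tgfbr1, Id2 and Smoc1 are among those results.

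The labels mention pairs but do not tie the numbers to them. After subtracting group means, the correlation of cultures with the same number was 0.83, 0.59 and 0.57. Same-numbered cultures are described here as pairs, while the main genotype fit has no block. Cultures 2 and 3 also correlated across numbers (0.49 and 0.55). These values thus set number 1 apart but hardly tell pair 2 from pair 3. Alternatives are given in the closing section.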

Additional observations from a re-analysis of the deposited data

How the results depend on the processing

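Over all probe sets the count of genotype calls was 0, and was 1 with array weights, 5 with the replicate block, 20 with numbers 2 and 3 alone, 11 with number 1 as one block and the other numbers as the other (chosen after seeing the data), and 0 to 4 with 1 array left out. The count among member probe sets was 0 in each of these and at the other alternatives: pseudocounts of 1 and 64, no filter or 60%, quantile normalization, median centring, no intensity trend and a threshold of 0.1. The replicate block changed no member's call. With numbers 2 and 3 alone Xist had the smallest limma adjusted p (1.06e-06), and Zmpste24 passed too (8.75e-06). Kdm5d (0.000753) passed there as well, as did Eif2s3y (0.000747), both high only in wild-type cultures 2 and 3. Sex and genotype cannot be told apart in that run. The 4 calls came without the wild-type array of number 1, which leaves the low-Xist wild-type cultures. The part of sex in these counts was not tested. Between culture numbers 7 member probe sets passed, 4 with no intensity trend, where Inhba (adjusted p = 0.11), Fstl3 (0.0643) and Fstl1 (0.167) were lost, and 6 or 7 with 1 array left out. Over all 27022 probe sets that count was 11253, 7727 with no intensity trend, so it was lower there too, and 8345 to 10815 with 1 array left out.

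The genotype difference of Fst kept its direction in every alternative run (0.315 to 0.45 with 1 array left out) and so did that of Inhbb (-0.83 to -0.24). Runs that changed only the filter, the trend or the block leave this value as it was, so they could not turn it. Inhba (0.0473 to 0.32 with 1 array left out) also kept its direction, as did the brightest Acvr2b probe set (-1.375 to -0.78) wherever it was tested. Fstl1 turned from -0.03 to 0.0109 with quantile normalization and 0.0145 with the mean of its probe sets. With 1 array left out the genotype difference ranged from -0.12 to 0.0544 for Fstl1, -0.43 to 0.0671 for Fstl3, -0.0451 to 0.71 for Acvr2a and -0.12 to 0.0074 for Acvr1b. The difference of number 1 from the others ranged from -0.21 to 0.0429 for Fst, -0.0013 to 0.21 for Acvr1b and -0.64 to 0.10 for Acvr2b, and was -0.0041 for Acvr1b with median centring. The cause was not tested. Without the intensity trend 4 of 11 fibroblast and 4 of 10 macrophage markers passed by number. With the dimmest 60% left out Acvr2b was not tested, and its low signal limits what can be said of it.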
